A study of Mus musculus with 6 samples.

Results

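A set of 10 genes of the amino acid stress response, led by the transcription factor Atf4, were followed in cells sorted fresh from adult mouse hind-limb muscle. They were chosen by symbol: Atf4, Atf5, Ddit3, Trib3, Ddit4, Sesn2, Asns, Phgdh, Psat1 and Chac1, which make up 10 of the 24062 genes in the table of normalised counts. A smaller table of CPM, read counts scaled to library size, holds 7 of these 10 genes among its 4939, without Trib3, Phgdh and Chac1.

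All mice had the C57BL/6 background, carried the R26-tdTO reporter, which makes tdTomato protein after Cre recombination, and received tamoxifen on alternate days, 3 treatments in all, 10 days before the muscle was taken. In the genotype Tw2-CreERT2/+;R26-tdTO+ the tamoxifen-dependent Cre was under the name of Twist2, a transcription factor, and gave the tdTomato-positive group Tw2pos (2 libraries) and the tdTomato-negative group Tw2neg (2 libraries). In the genotype Pax7-CreERT2/+;R26-tdTO+ it was under the name of Pax7, the transcription factor of muscle satellite cells, and gave Pax7pos (1 library) and Pax7neg (1 library). RNA was sequenced from the sorted cells, and the labels do not say whether libraries came from separate animals, so every p-value below measures only the spread between libraries. Tamoxifen and the reporter were common to all 4 groups, and the sample labels describe no group with an imposed amino acid stress.

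Atf4 messenger RNA is translated efficiently when the initiation factor eIF2alpha is phosphorylated, because upstream open reading frames in its leader otherwise hold ribosomes back. The kinases that phosphorylate eIF2alpha sense amino acid shortage, unfolded protein in the endoplasmic reticulum, viral RNA or haem shortage, and the Atf4 protein then switches on genes for amino acid synthesis, uptake and tRNA charging. Its targets also include other transcription factors and inhibitors of growth signalling. Messenger RNA levels of Atf4 do not report its translation, which was not measured here.

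A short sequence, TGATGNAA, is the core of the C/EBP-ATF response element through which Atf4 acts with a partner, and was searched on both strands in RefSeq promoter windows of GRCm38.p6 that run from 250 bases before to 50 bases after the annotated start. It was found for 3 of the 10 genes (30%), against 1219 of 27025 genes with a window (4.51%). A match is a description of letters in this window and not a measured binding site. The 3 matches are shown with their surroundings because these genes are the ones in the set that hold the letters. Each line gives bases on the strand of the gene, 5′ to 3′, with the match in capitals.

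Asns: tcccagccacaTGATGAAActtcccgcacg

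Trib3: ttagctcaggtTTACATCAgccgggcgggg

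Chac1: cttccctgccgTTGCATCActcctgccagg

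The Asns stretch lies at chr6:7693214-7693243 on the minus strand, with the match in the forward orientation, 23 bases upstream of the RefSeq start. For Trib3 the stretch lies at chr2:152344028-152344057 on the minus strand, with the match in the reverse orientation, 15 bases downstream of the RefSeq start. In Chac1 it lies at chr2:119351038-119351067 on the plus strand, and the match is reversed and 193 bases upstream of the RefSeq start. The gene spans given below are from GENCODE, whose starts differ from those of RefSeq. Counted from the GENCODE start, the Asns match lies 22 bases inside the gene, the Trib3 match 14 bases upstream and the Chac1 match 180 bases upstream, so that the side of the start is not settled for Asns and Trib3. Among these 3 genes, Chac1 was lower in Tw2pos than in Tw2neg, whereas Asns and Trib3 did not pass the test.

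The 4 Twist2-line libraries held between 10902318 and 13205751 reads, and the Pax7 libraries held 6016469 (Pax7pos) and 7565797 (Pax7neg) reads over the genes of the CPM table. Marker genes went with the labels of the positive groups. Summed fibro-adipogenic and tendon markers were highest in Tw2pos (44748 and 28598 CPM) and lowest in Pax7pos (1060 and 205). The unlabelled groups held them too, Pax7neg (20260 and 8237) more than Tw2neg (7841 and 3840). Summed satellite cell markers were highest in Pax7pos (2999 CPM, against 553 in Tw2pos, 244 in Tw2neg and 124 in Pax7neg). The sum does not stand for each marker: in Tw2pos against Tw2neg 1 of 6 was higher, 2 were lower and 3 did not pass (median log2 fold change -1.10). Blood cell markers were mostly in the negative groups: the summed level of 6 neutrophil markers was 516 and 326 normalised counts in Tw2pos against 71962 and 65482 in Tw2neg, and all 6 were lower in Tw2pos. Of the macrophage markers, 5 of 5 tested were lower in Tw2pos, as were 4 of 4 B cell, 3 of 3 T cell and 5 of 6 endothelial markers. Tw2neg thus held RNA of several other cell types. The part of these cells in the differences below was not tested, and in sorted bulk RNA fewer cells of a type and less RNA per cell cannot be told apart.

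The first comparison set the labelled Twist2-lineage cells against the unlabelled cells of the same muscle. Atf4 itself did not pass the test, while Atf5, a close relative of Atf4, was 3.78-fold higher in Tw2pos. Ddit4, Psat1 and Chac1 were lower by 2.21-fold, 1.69-fold and 3.31-fold. The test was limma on log2 of the normalised count plus 1. Benjamini-Hochberg adjustment ran over 14155 genes, and 0.05 was the threshold for a call. Of the 10 genes, 1 rose, 3 fell and 6 did not pass, beside 38.6% of all genes tested that passed (18.7% higher and 20% lower). The share of the 10 that passed is near this background. Their median log2 fold change was -0.26, and that of all genes tested was -0.04.

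**Figure D1:**
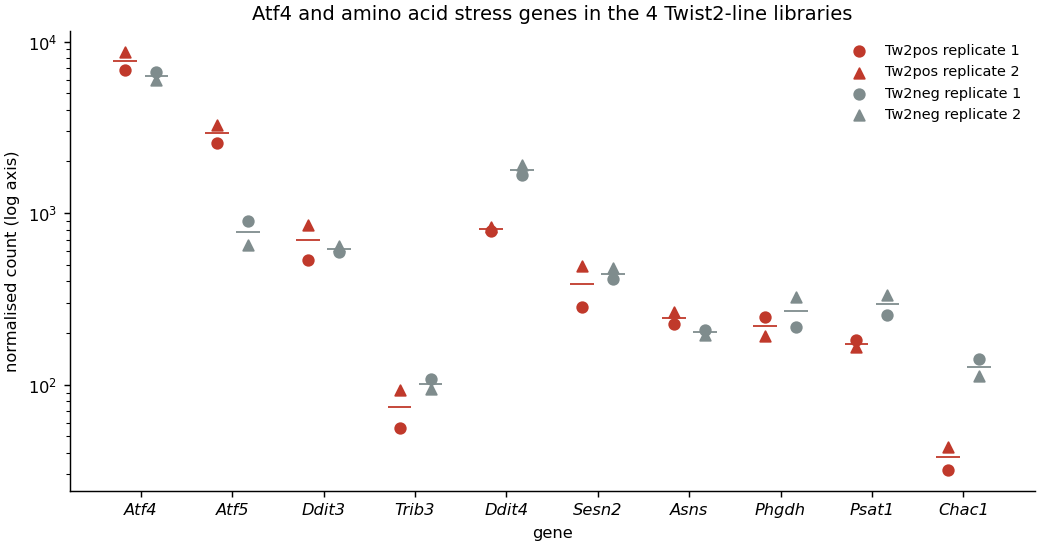
Normalised counts (log axis) of the 10 genes in each of the 4 Twist2-line libraries, with circles for replicate 1, triangles for replicate 2 and a line at each group mean. Atf5 stands higher in both Tw2pos libraries than in both Tw2neg libraries, and Ddit4, Psat1 and Chac1 stand lower.

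Of the transcription factors, Atf4 (chr15:80255184-80257541, plus strand) had 6813 and 8679 normalised counts in the Tw2pos libraries and 6622 and 5981 in the Tw2neg libraries. The means were 7746 ± 1319 and 6301 ± 453 (SD, n = 2 each), and the log2 fold change of 0.29 (95% interval -0.32 to 0.90) had an adjusted p of 0.393 by limma. The libraries did not overlap, but Tw2pos replicate 1 stood close to Tw2neg replicate 1, and the sign turned under other scalings (-0.16 with library totals and -0.25 with quantile normalisation).

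Atf5 (chr7:44812256-44816658, minus strand) encodes a basic leucine zipper factor that, like Atf4, is translated under eIF2alpha phosphorylation. It had 2546 and 3285 normalised counts in Tw2pos and 902 and 648 in Tw2neg. Both Tw2pos libraries lay well above both Tw2neg libraries. The log2 fold change was 1.92 (SE 0.24, 95% interval 1.33 to 2.51, adjusted p = 0.00302 by limma), and it passed in every one of 12 alternatives, between 1.47 and 2.16. Atf5 overlaps Il4i1 and Nup62 in the annotation, and no source used here says whether reads were counted by strand. Nup62, which encodes a nuclear pore protein, did not pass (log2 fold change -0.26, adjusted p = 0.287 by limma), and Il4i1 had at most 11.2 normalised counts in any library.

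Ddit3 (chr10:127290774-127296288, plus strand) encodes CHOP, a factor linked to cell death when stress persists. Its 533 and 856 normalised counts in Tw2pos spanned the 592 and 640 of Tw2neg, so the groups overlapped (log2 fold change 0.13, SE 0.26, adjusted p = 0.711 by limma). Ddit3 overlaps Mars in the annotation, and Mars had 672 and 618 normalised counts in Tw2pos and 531 and 653 in Tw2neg. Whether reads of Mars were counted for Ddit3 was not tested. Trib3 (chr2:152337422-152344032, minus strand) encodes a pseudokinase that binds Atf4 and Ddit3 proteins and damps their action. It had few reads, at 56.1 and 92.9 normalised counts in Tw2pos and 107 and 94.3 in the Tw2neg libraries, and did not pass (log2 fold change -0.47, SE 0.34, adjusted p = 0.310 by limma).

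Ddit4 and Sesn2 encode inhibitors of mTORC1, the kinase complex that couples amino acids to growth. Ddit4 (chr10:59949669-59951834, minus strand) had 785 and 826 normalised counts in Tw2pos and 1657 and 1919 in Tw2neg. Each Tw2neg library held more than both Tw2pos libraries together, and the log2 fold change was -1.15 (SE 0.18, 95% interval -1.58 to -0.71, adjusted p = 0.00544 by limma). Without Tw2pos replicate 1 the adjusted p was 0.0553, at a log2 fold change of -1.11. Sesn2 (chr4:132492032-132510501, minus strand), whose protein is a leucine sensor, had 284 and 488 normalised counts in Tw2pos and 411 and 476 in Tw2neg. Its groups overlapped, and it did not pass (log2 fold change -0.25, SE 0.29, adjusted p = 0.536 by limma).

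Asns encodes asparagine synthetase, and Phgdh and Psat1 encode enzymes of serine synthesis that act in turn. Asns (chr6:7675169-7693254, minus strand) had 227 and 265 normalised counts in Tw2pos and 209 and 194 in Tw2neg. Its change of 0.28 on the log2 scale (SE 0.21) did not pass (adjusted p = 0.334 by limma) and turned to -0.16 with library totals. Phgdh (chr3:98313170-98339990, minus strand) overlapped between the groups, with 247 and 193 normalised counts in Tw2pos and 215 and 325 in Tw2neg (adjusted p = 0.470 by limma). Psat1 (chr19:15904678-15947337, minus strand) had 181 and 165 normalised counts in Tw2pos and 255 and 335 in Tw2neg. Its groups did not overlap, and the log2 fold change of -0.75 (SE 0.23) just passed (adjusted p = 0.0477 by limma). That call ended in 8 of 12 alternatives, among them edgeR (0.0506), DESeq2 (0.0775) and leaving out Tw2pos replicate 1 (0.217) or Tw2pos replicate 2 (0.302).

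Chac1 (chr2:119351229-119354381, plus strand) encodes an enzyme that degrades glutathione. It had 31.9 and 43.4 normalised counts in Tw2pos and 141 and 112 in Tw2neg, from 25 to 173 reads a library. Both Tw2pos libraries were far below both Tw2neg libraries, and the log2 fold change was -1.73 (SE 0.32, 95% interval -2.52 to -0.94, adjusted p = 0.0102 by limma). Without Tw2pos replicate 1 it was -1.51, with an adjusted p of 0.0737. Across the set, 3 genes (Atf4, Atf5 and Asns) had both Tw2pos libraries above both Tw2neg libraries and 4 (Trib3, Ddit4, Psat1 and Chac1) had them below, beside 76.3% of all genes tested whose groups did not overlap.

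The Tw2pos libraries differed from each other in these genes. Replicate 2 lay above replicate 1 in 8 of the 10 genes, with Phgdh and Psat1 as the exceptions, against 51.4% of all genes tested. The gap was widest for Sesn2 (284 against 488), Trib3 (56.1 against 92.9) and Ddit3 (533 against 856). In Tw2neg, replicate 2 lay above replicate 1 in 5 of the 10, against 50.4% of all genes. Per kilobase of exon, Atf4 had the highest level of the set in both groups (3285 normalised counts per kb in Tw2pos and 2672 in Tw2neg). Atf5 came next in Tw2pos (1463, against 389 in Tw2neg), and Ddit4 came next in Tw2neg (1019, against 459 in Tw2pos). Chac1 was lowest in Tw2pos at 23.0 per kb, and Trib3 was lowest in Tw2neg at 47.5.

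The comparison of the labelled cells of both lines was made on CPM. Pax7pos had the highest CPM of the 6 libraries for each of the 7 genes listed, which was so for 31.1% of all genes tested. This order is tied to how the authors' table was filled: its genes all reached 10 CPM in a minimum of 3 libraries, and all had a 2-fold or larger difference from Tw2neg in some comparison of the authors. By the authors' deposited table, Atf4, Ddit3, Sesn2 and Psat1 met that fold in Pax7pos against Tw2neg alone, so they had to differ in Pax7pos to be listed. Ddit4 met it in Tw2pos against Tw2neg alone, Asns in both Pax7 groups and Atf5 in all 3. For Atf4, Ddit3, Sesn2 and Psat1 the listing itself therefore favoured a low value against Pax7pos. For Asns it favoured low values against both Pax7 groups, and for Ddit4 a low value in Tw2pos. The test values of all 7 genes in the Pax7 comparisons are printed as descriptions of these libraries. The counts over the 7 listed genes are descriptions too and carry no weight for the 10.

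**Figure D2:**
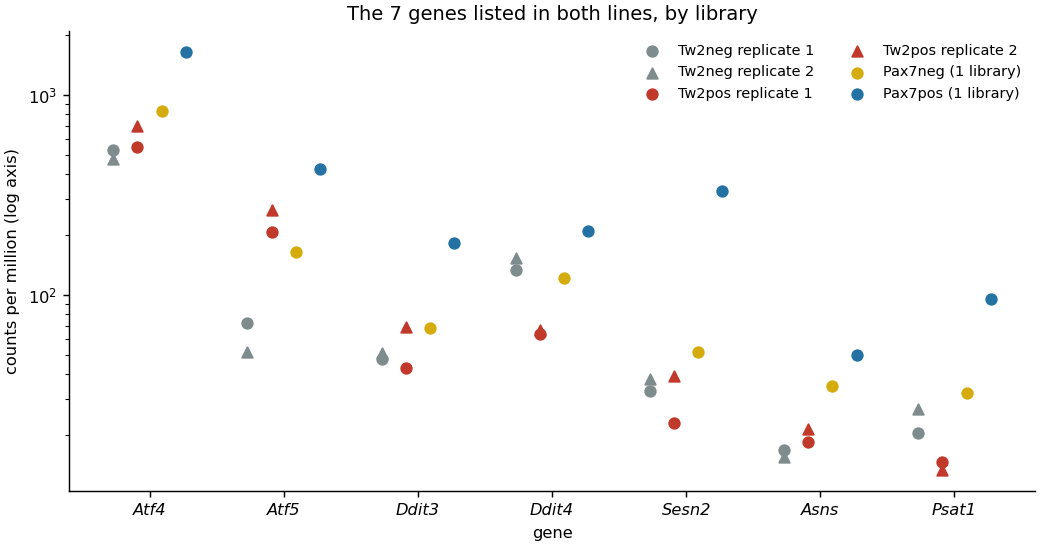
CPM (log axis) of the 7 genes listed in both lines, with 1 point per library, circles for replicate 1 or the lone library and triangles for replicate 2. Pax7pos is the highest point for each gene, and for Sesn2 it stands at 331 CPM against 52.1 in Pax7neg.

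Sesn2 had 331 CPM in Pax7pos, 52.1 in Pax7neg, 23.0 and 39.5 in Tw2pos and 33.0 and 38.0 in Tw2neg. The other 5 libraries lay within a narrow band far below Pax7pos. Tw2pos was 10.7-fold lower than Pax7pos (log2 fold change -3.42, SE 0.39, adjusted p = 0.000357 by limma). That p assumes that the lone Pax7pos library varies like the Twist2 libraries, and it does not account for the listing of Sesn2 through its high Pax7pos value. Psat1 had 95.7 CPM in Pax7pos, 32.2 in Pax7neg, 14.6 and 13.3 in Tw2pos and 20.5 and 26.8 in Tw2neg. Its order ran from Pax7pos down through the negative groups to Tw2pos, and it was 6.46-fold lower in Tw2pos than in Pax7pos (log2 fold change -2.69, SE 0.34, adjusted p = 0.000627 by limma).

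Atf4 had 1633 CPM in Pax7pos, 834 in Pax7neg, 550 and 701 in Tw2pos and 532 and 478 in Tw2neg. Tw2pos was lower than Pax7pos (log2 fold change -1.39, SE 0.38, adjusted p = 0.0147 by limma), and the value was -1.22 without Tw2pos replicate 1. Leaving out a Tw2pos library sets 1 library against 1 in this comparison, so the p-values of that fit are not read. Ddit3 had 181 CPM in Pax7pos and 68.1 in Pax7neg, with 43.0 and 69.2 in Tw2pos and 47.5 and 51.2 in Tw2neg. The Pax7neg value lay inside the range of Tw2pos, and only Pax7pos stood apart. Tw2pos was lower than Pax7pos (log2 fold change -1.71, SE 0.37, adjusted p = 0.0057 by limma), and the value was -1.38 without Tw2pos replicate 1. Asns had 49.9 CPM in Pax7pos, 35.2 in Pax7neg, 18.3 and 21.4 in Tw2pos and 16.8 and 15.5 in Tw2neg. For Asns, as for Atf4, Sesn2 and Psat1, both Pax7 libraries lay above all Twist2 libraries. The log2 fold change of Asns was -1.29 (SE 0.34, adjusted p = 0.0125 by limma). It was -1.18 without Tw2pos replicate 1 and -1.40 without Tw2pos replicate 2.

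Ddit4 had another order: 209 CPM in Pax7pos, 133 and 153 in Tw2neg, 121 in Pax7neg and 63.4 and 66.7 in Tw2pos. It was lowest in Tw2pos, which was lower than Pax7pos (log2 fold change -1.67, SE 0.31, adjusted p = 0.00301 by limma). Atf5 had 427 CPM in Pax7pos, 206 and 265 in Tw2pos, 163 in Pax7neg and 72.4 and 51.8 in Tw2neg, so that in both lines the labelled cells were above the unlabelled cells. Its log2 fold change between Tw2pos and Pax7pos was -0.87 (SE 0.36) and did not pass (adjusted p = 0.0659 by limma), but it passed with edgeR (0.0118) and DESeq2 (0.00159). Leaving out a Tw2neg library left the value at -0.87, since Tw2neg is not in this comparison and alters only the fitted spread. Over its 10 alternatives the value ran from -1.33 to -0.63. Of the 7 listed genes, 6 were lower in Tw2pos than in Pax7pos and none was higher, beside 59.6% of all genes tested that passed (25.7% lower and 33.9% higher). The median log2 fold change was -1.67 for the 7 and 0.41 for all genes tested. The scale moved that background: the share of calls that were higher was 56.9% as fitted, 46.2% with quantile normalisation and 45.4% with DESeq2.

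**Figure D3:**
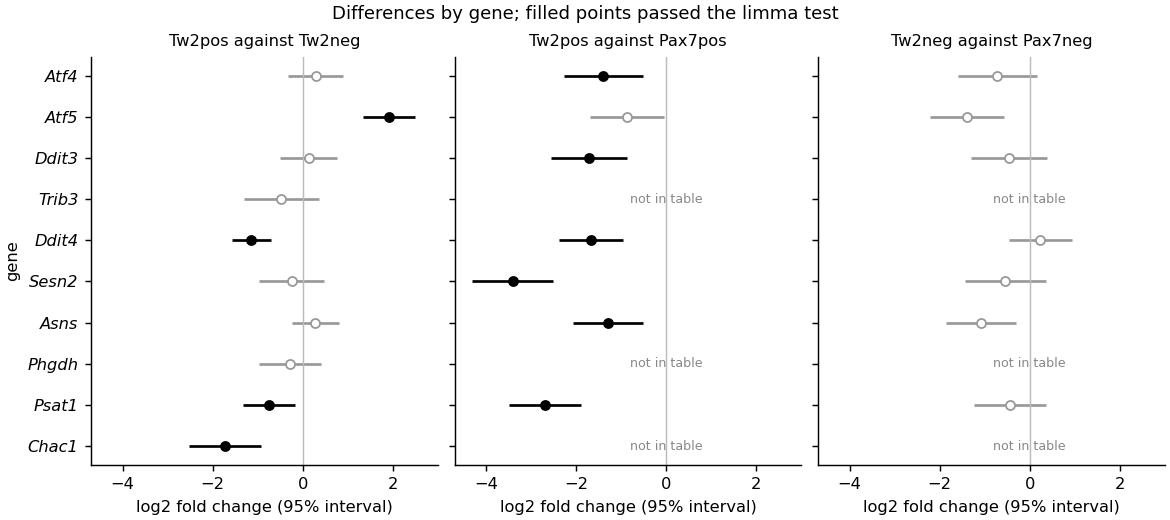
Log2 fold changes with 95% intervals for each gene in the 3 tested comparisons; filled points passed the limma test, open points did not, and 3 genes are not in the CPM table. In Tw2pos against Tw2neg, 1 of 10 genes has a filled point above 0 and 3 below, beside 18.7% and 20% of all genes tested. In Tw2pos against Pax7pos, 6 of 7 have filled points below 0, beside 25.7% of all genes tested. These 7 are genes that the authors' table selected by fold.

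The unlabelled cells of both lines were compared in the same fit. None of the 7 genes passed in Tw2neg against Pax7neg by limma, beside 0.23% of all genes tested that passed (0.146% higher and 0.0835% lower), and 2 had an unadjusted p under 0.05. These were Atf5 (log2 fold change -1.40, adjusted p = 0.148) and Asns (-1.08, adjusted p = 0.196). Leaving out Tw2neg replicate 1 gave -1.64 for Atf5 and -1.13 for Asns, and leaving out Tw2neg replicate 2 gave -1.16 and -1.03. Such a fit sets 1 library against 1 and takes its spread from the Tw2pos pair, so its p-values are not read here. Both genes met the authors' fold rule in this same comparison, so their listing drew on these values. The count tests were not run for this comparison.

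Between the Pax7 fractions there is 1 library each and no test. Pax7pos was above Pax7neg by 6.36-fold for Sesn2, 2.97-fold for Psat1, 2.66-fold for Ddit3, 2.61-fold for Atf5, 1.96-fold for Atf4, 1.73-fold for Ddit4 and 1.42-fold for Asns. On log2 of CPM plus 10, 4 of the 7 were 2-fold or more higher and none was 2-fold or more lower, beside 18.9% and 33% of all genes tested. The 95% exact binomial interval of the Pax7pos level was 320 to 343 CPM for Sesn2 and 89.6 to 102 CPM for Psat1, which covers counting error only.

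The difference between the lines was tested directly, as the labelled minus unlabelled change in the Twist2 line less that in the Pax7 line. It passed for Sesn2 (-2.87, SE 0.55, adjusted p = 0.00622), Psat1 (-2.25, SE 0.49, adjusted p = 0.0108) and Ddit4 (-1.91, SE 0.43, adjusted p = 0.0127) by limma, beside 36.2% of all genes tested (12.8% lower). Each Pax7 fraction is 1 library here, and Sesn2 and Psat1 were listed through Pax7pos against Tw2neg alone, so that for these 2 genes the sign was favoured by the listing. Ddit4 was listed through its low value in Tw2pos against Tw2neg alone. That comparison is a term of the difference tested, so the sign for Ddit4 was favoured as well. Without Tw2pos replicate 1 the value was -1.88 for Ddit4 and -2.31 for Psat1, and without Tw2pos replicate 2 it was -1.95 and -2.19. Such a fit takes its spread from the Tw2neg pair alone, so its p-values are not read here. With quantile normalisation the adjusted p of Psat1 was 0.0514 by limma. Over its alternatives the value of Sesn2 ran from -3.25 to -2.46. Ddit3 (-1.26, adjusted p = 0.0915), Atf4 (-0.67, 0.346), Atf5 (0.53, 0.422) and Asns (-0.21, 0.739) did not pass by limma.

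Ratios within a library do not depend on how libraries were scaled. Asns reads were 3.33% and 3.06% of Atf4 reads in Tw2pos, 3.16% and 3.25% in Tw2neg, 3.06% in Pax7pos and 4.22% in Pax7neg. Ddit3 reads were between 7.82% and 11.1% of Atf4 reads in all 6 libraries. Over the same libraries the level of Atf4 itself ranged from 478 to 1633 CPM. These proportions are not corrected for gene length and compare libraries, not genes. Atf5 reads, in contrast, were 37.4% and 37.9% of Atf4 reads in Tw2pos, 26.1% in Pax7pos, 19.6% in Pax7neg and 13.6% and 10.8% in Tw2neg, with all Tw2pos values above all others.

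Ddit4 ran from 9.52% and 11.5% of Atf4 reads in Tw2pos through 12.8% in Pax7pos and 14.5% in Pax7neg to 25.0% and 32.1% in Tw2neg. For Sesn2 the proportion was 20.3% in Pax7pos and between 4.17% and 7.95% in the other 5 libraries. Psat1 lay at 2.66% and 1.90% in Tw2pos and between 3.86% and 5.86% elsewhere. Chac1 was 0.468% and 0.500% of Atf4 reads in Tw2pos and 2.12% and 1.87% in Tw2neg, and Trib3 was 0.823% and 1.07% against 1.62% and 1.58%. The Tw2pos libraries held the lowest proportions for Ddit4, Sesn2, Psat1, Chac1 and Trib3, with Chac1 and Trib3 known in the Twist2 line only.

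**Figure D4:**
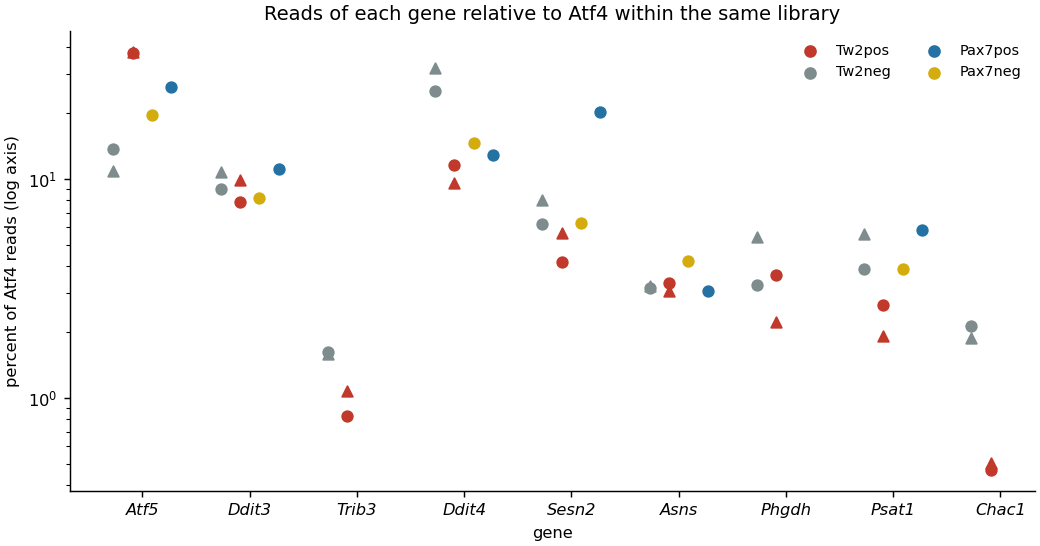
Reads of each gene as a percent of Atf4 reads in the same library (log axis), with 1 point per library, circles for replicate 1 or the lone library and triangles for replicate 2. Asns lies between 3.06% and 4.22% in all 6 libraries, whereas Atf5 is highest in Tw2pos and Sesn2 is highest in Pax7pos.

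Over the 6 libraries, genes whose centred log2 CPM lay nearest to that of Atf4 included Plekhm2, Kcmf1, Zfp703 and Vps37c, with root mean square differences of 0.05, 0.08, 0.11 and 0.11 on the log2 scale among 2184 genes compared. Of the set itself, Ddit3 was nearest (0.18, rank 46), followed by Ddit4 (0.62, rank 679), Atf5 (0.68, rank 741) and Sesn2 (0.70, rank 773). Atf4 and Ddit3 were both listed through Pax7pos against Tw2neg alone, so the listing favoured a high Pax7pos value in both. Asns and Psat1 were below the mean of 50 CPM asked for there. Zfp703 encodes a zinc finger protein, and these 4 genes had their highest CPM in Pax7pos.

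The neighbouring steps of the pathway were read from 12 lists of genes. In Tw2pos against Tw2neg, each of the 12 lists held genes that did not pass. The counts stand beside 18.7% higher and 20% lower among all genes tested, and many of them moved with the scale or with 1 library. Among 13 genes for the eIF2alpha kinases, phosphatase and the exchange factor eIF2B, 1 fell (Eif2b2, a subunit of eIF2B, -0.92, adjusted p = 0.0183 by limma) and 12 did not pass. The number lower was 6 with library totals, 5 without Tw2neg replicate 1, and 0 without Tw2pos replicate 1 or Tw2pos replicate 2, where the adjusted p of Eif2b2 was 0.145 and 0.169. Of 20 cytosolic aminoacyl-tRNA synthetases, which charge tRNA with amino acids, 3 fell, none rose and 17 did not pass (median log2 fold change -0.09), with 8 lower by library totals, 5 without Tw2neg replicate 1, and 1 without either Tw2pos library or with no trend. Vars, the valine enzyme, was lowest relative to Tw2neg, with 674 and 725 normalised counts in Tw2pos and 1661 and 2641 in Tw2neg (-1.58, adjusted p = 0.00635 by limma). Wars, the tryptophan enzyme, which is also among the 15 further targets below, was at 451 ± 14.2 in Tw2pos and 852 ± 247 in Tw2neg (SD, n = 2 each, -0.88, adjusted p = 0.0327 by limma). The call of Vars held in every alternative run, and that of Wars ended without Tw2pos replicate 1 (0.135) or Tw2pos replicate 2 (0.167), with no filter (0.0561) and with no trend (0.0679).

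Of 13 partners and related basic leucine zipper factors, 4 rose and none fell (median 0.41), with 3 higher and 1 lower by library totals and 6 higher without Tw2neg replicate 1. Creb3l1, an endoplasmic reticulum-bound factor active in collagen-secreting cells, rose by 1.99 on the log2 scale from 356 ± 125 to 1387 ± 283 normalised counts. Of 15 further targets of the response, 3 rose and 1 fell, the latter Wars, with 4 lower by library totals. Stc2, which encodes a secreted glycoprotein, rose most, by 2.12 on the log2 scale, with 143 and 194 normalised counts in Tw2pos and 38.2 and 36.8 in Tw2neg. The calls of Creb3l1 and Stc2 held in every alternative run. Of 19 chaperones and folding enzymes of the other arms of the unfolded protein response, 3 passed as higher and none as lower (median 0.56), but none was higher with library totals, without Tw2pos replicate 1 or without Tw2pos replicate 2. Pdia3, a disulphide isomerase, had a log2 fold change of 1.05 (adjusted p = 0.0191 by limma), with an adjusted p of 0.0606 by library totals, 0.0729 by quantile normalisation, 0.0779 without Tw2pos replicate 1 and 0.203 without Tw2pos replicate 2.

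In serine, glycine, one-carbon and proline synthesis, 5 of 16 passed as higher and 2 as lower, with 0 higher without Tw2pos replicate 1 and 2 higher without Tw2pos replicate 2. Aldh1l2, the mitochondrial formyltetrahydrofolate dehydrogenase, was higher by 2.15 on the log2 scale (adjusted p = 0.0184 by limma, 0.0553 without Tw2pos replicate 1), and Shmt1, the cytosolic serine hydroxymethyltransferase, fell by 2.15 (-2.15, adjusted p = 0.007 by limma) from 82.2 ± 8.14 to 17.9 ± 3.68 normalised counts in a call that held in every alternative run. Of 14 enzymes of aspartate, glutamate, alanine and sulphur amino acids, 3 rose and 1 fell, and by library totals 1 was higher and 3 lower. Gpt2, an alanine aminotransferase, rose by 2.10 in a call that held in every alternative run. Got1, an aspartate aminotransferase, was lower (-1.46, adjusted p = 0.0281 by limma), with an adjusted p of 0.0883 without Tw2pos replicate 1, 0.0579 with no filter and 0.0596 with no trend. Among 12 amino acid transporters, 4 rose and 2 fell, with 2 higher and 4 lower by library totals, 2 higher without Tw2pos replicate 1 and 1 higher without Tw2pos replicate 2. Slc1a4, a carrier of neutral amino acids, had 530 and 488 normalised counts in Tw2pos and 188 and 114 in Tw2neg (log2 fold change 1.79, adjusted p = 0.00606 by limma). Slc7a11, the cystine carrier that supplies glutathione synthesis, had 48.4 and 50.7 in Tw2pos and 288 and 676 in Tw2neg (-3.13, adjusted p = 0.00364 by limma). The calls of Slc1a4 and Slc7a11 held in every alternative run.

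Around Ddit4 and Sesn2, 3 of 14 mTORC1 regulators and sestrins passed as higher and 1 as lower. By library totals 1 was higher and 6 were lower, and without Tw2pos replicate 1 or Tw2pos replicate 2 there was 1 higher and 0 lower. Deptor, which encodes an mTOR inhibitor, rose most among them, by 1.48 on the log2 scale (adjusted p = 0.00933 by limma), and passed in every alternative run. Sesn1, a relative of Sesn2, was lower (-0.94, adjusted p = 0.0337 by limma), a call that ended without Tw2pos replicate 1 (0.127) or Tw2pos replicate 2 (0.147), with no filter (0.0598) and with no trend (0.0698).

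Of 11 glucocorticoid and hypoxia responsive genes, a class that Ddit4 also belongs to, 4 passed as higher and 3 as lower, with 2 and 0 without Tw2pos replicate 1, 0 and 1 without Tw2pos replicate 2, and 2 and 5 by library totals. Klf9, a glucocorticoid-induced factor, had a log2 fold change of 1.44 (adjusted p = 0.0156 by limma, 0.0539 without Tw2pos replicate 2). Ankrd37, a hypoxia-induced gene, had one of -1.59 (adjusted p = 0.0254 by limma), which ended in 5 alternatives, at an adjusted p of up to 0.158.

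In glutathione turnover around Chac1, 2 of 9 passed as higher and 2 as lower, and 0 were higher without either Tw2pos library or by library totals. Gsr, glutathione reductase, was lower (-1.81, adjusted p = 0.00179 by limma), and Ggt1, a gamma-glutamyltransferase, was near 0 in Tw2pos (2.55 and 0 normalised counts) and at 35.8 and 62.4 in Tw2neg. Both kept their calls in every alternative run. Ggt5, a relative of Ggt1, was higher by 1.02 (adjusted p = 0.0123 by limma), with an adjusted p of 0.0884 without Tw2pos replicate 1, 0.0937 without Tw2pos replicate 2 and 0.0602 by library totals. None of 3 tested genes of the Tribbles list passed by limma.

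**Figure D5:**
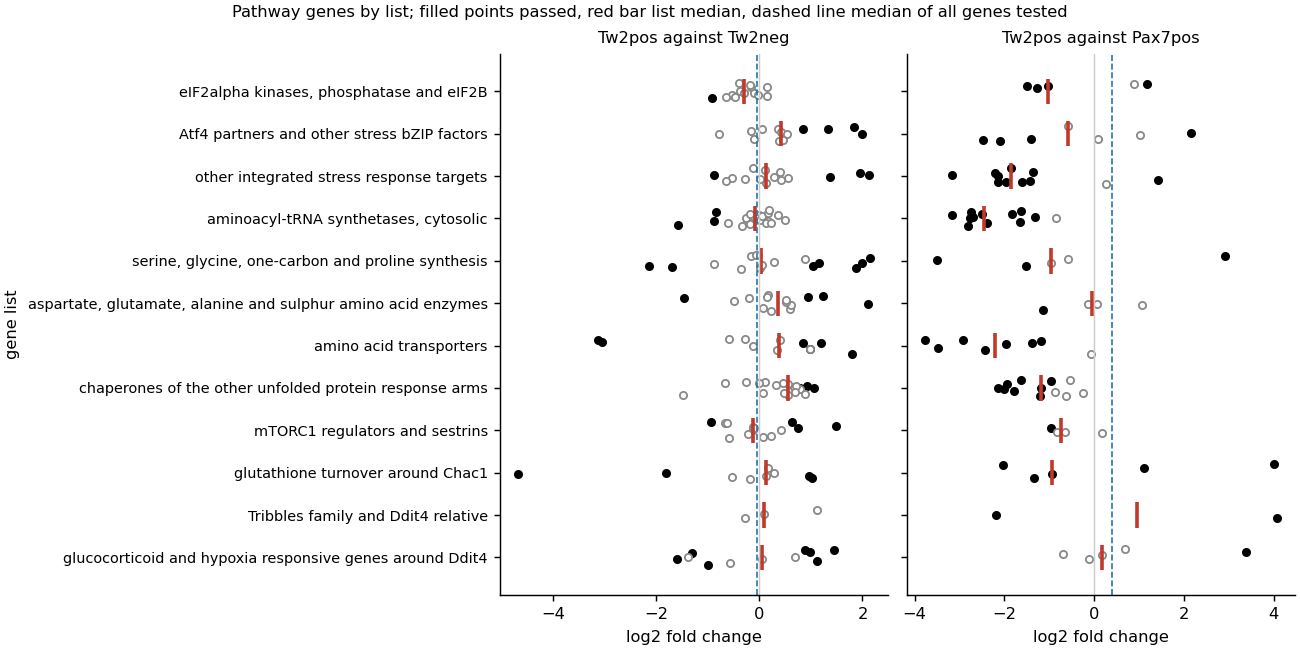
Log2 fold changes of the pathway genes, 1 point per gene and 1 row per list, in Tw2pos against Tw2neg and Tw2pos against Pax7pos; filled points passed the limma test, red bars are list medians and the dashed line is the median of all genes tested. The panels hold different genes: 20 tRNA synthetases are tested in the first and 12 in the second, which shows only genes that the authors' table selected by fold.

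Against Pax7pos only those list genes can be described that the CPM table holds, and the way they were listed fixes much of what can be seen. Of 20 aminoacyl-tRNA synthetases 12 are in it, and in the authors' deposited table, 11 of these 12 met the 2-fold rule through a higher value in Pax7pos than in Tw2neg and through no other comparison. The same was so for 4 of the 8 amino acid transporters listed, 6 of the 11 further targets and 10 of the 12 chaperones, and for 1087 of all 4939 genes of the table. The counts of lower genes in Tw2pos against Pax7pos, 11 of 12 synthetases, 7 of 8 transporters, 9 of 11 targets and 8 of 12 chaperones beside 25.7% of all genes tested, are thus descriptions of selected genes and say nothing of each list as a whole.

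Single genes show the size of the difference in these libraries. Cars, the cysteine tRNA synthetase, had 35.5 and 38.3 CPM in Tw2pos, 33.2 and 40.8 in Tw2neg, 55.9 in Pax7neg and 339 in Pax7pos (log2 fold change of Tw2pos against Pax7pos -3.16). Slc7a5, the light chain of the carrier for leucine and other large neutral amino acids, had 36.0 and 52.9 CPM in Tw2pos, 56.8 and 75.6 in Tw2neg, 84.2 in Pax7neg and 611 in Pax7pos (-3.78). Eif4ebp1, the translation repressor downstream of mTORC1, had 22.6 and 24.5 CPM in Tw2pos, 18.2 and 17.2 in Tw2neg, 29.0 in Pax7neg and 219 in Pax7pos (-3.17). For these 3 genes the 4 Twist2-line libraries and Pax7neg all lay far below Pax7pos. These genes and the next ones were named by the largest passing change of each list, chosen after the values were seen.

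Mthfd2, a mitochondrial enzyme of one-carbon metabolism, was at 23.9 and 31.2 CPM in Tw2pos and 321 in Pax7pos (-3.51), while Aldh1l2 was higher in Tw2pos (22.3 and 19.6 CPM against 1.88 in Pax7pos, 2.93 on the log2 scale, with an adjusted p of 0.0689 by quantile normalisation). Cebpb, a leucine zipper partner of Atf4, was at 84.3 and 112 CPM in Tw2pos and 544 in Pax7pos (-2.47). Hspa5, the main chaperone of the endoplasmic reticulum, was at 2103 and 3078 CPM in Tw2pos and 11181 in Pax7pos (-2.14, and -1.86 without Tw2pos replicate 1). Genes that went the other way included Tsc22d3, a glucocorticoid target, at 509 and 529 CPM in Tw2pos and 48.5 in Pax7pos (3.39), and Trib2, a Tribbles pseudokinase, at 68.3 and 55.7 CPM in Tw2pos and 2.72 in Pax7pos (4.08).

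Of 15 immediate-early genes, which often rise during tissue digestion, the CPM table holds 5. In Tw2pos against Pax7pos 1 of these 5 was higher, 1 was lower and 3 did not pass, beside 33.9% higher and 25.7% lower among all genes tested. The summed CPM of the 5 was 13369 in Pax7pos, 14596 in Tw2pos, 6184 in Pax7neg and 7445 in Tw2neg. All 15 summed to 402050 and 397020 normalised counts in Tw2pos and 276462 and 237412 in Tw2neg. In that comparison 1 of the 15 was higher and 14 did not pass. The part of immediate-early genes in the levels of the amino acid stress genes was not tested.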

How the data were processed

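The deposited files give 2 tables. Per the submitters' processing notes, TopHat2 2.0.0, DESeq2 1.6.3 and GRCm38/mm10 were used by the authors. No source used here names the counter, the annotation or the strand setting. One deposited table gives a normalised signal per gene, here called normalised counts, for the 4 Twist2-line libraries; reads were recovered from its steps (100% of values whole within 0.01). The other deposited table gives CPM, with each Twist2 group averaged over its 2 libraries, and the authors' log2 fold changes; single-library CPM was rebuilt from the recovered reads.

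Tw2pos and Tw2neg were compared with limma 3.58.1 (R 4.3.3) on log2(normalised count + 1), with a mean-variance trend, for genes averaging 10 or more. The other tests used log2(CPM + 1) of 6 libraries and 4790 genes averaging 10 CPM or more. A fold change on these scales understates the change of low genes. Alternatives were library totals, quantile scaling, another pseudocount, no filter, no trend, edgeR 4.0.16, DESeq2 1.42.0, a replicate block and each library left out. Gene spans are from GENCODE on GRCm38, promoter windows from RefSeq. Scripts were tested on simulated counts, whose spread was set and not taken from these libraries. There 20.9% of 2-fold and 97% of 4-fold changes were recovered in Tw2pos against Tw2neg. The shares were 20.9% and 95.5% in Tw2pos against Pax7pos, and 2.99% and 52.2% for the difference between the lines. A gene that did not pass can thus still differ by 2-fold. Of the calls, 2.68%, 7.69% and 5.88% were false in these 3 comparisons.

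The members and lists were chosen with earlier results of these data known. Named were all 10 members, from each list the largest passing change in each direction of Tw2pos against Tw2neg (a selection is printed, with those of highest mean in the tables only), and the 5 genes nearest to Atf4, of which 1 is not reported here. Gene lists came from general knowledge of the pathway.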

Additional observations from a re-analysis of the deposited data

Results flagged for a closer look

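For 3 genes the labelled minus unlabelled change differed between the Twist2 and Pax7 lines by the limma test of the difference itself. The values on the log2 scale were -2.87 for Sesn2, -2.25 for Psat1 and -1.91 for Ddit4. In the Twist2 line Sesn2 did not pass, while Psat1 and Ddit4 were lower in the labelled cells. In the Pax7 line, with 1 library per fraction and no test, all 3 were higher in the labelled cells (2.46, 1.32 and 0.75 on log2 of CPM plus 10). Sesn2 and Psat1 were listed in the CPM table through Pax7pos against Tw2neg alone, and Ddit4 through Tw2pos against Tw2neg alone. These choices were made on the same libraries.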

How the results depend on the processing

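Each Pax7 fraction is 1 library and could not be left out. Chac1 and Trib3 had the fewest reads. Atf5 kept its call in Tw2pos against Tw2neg in every alternative run. In Tw2pos against Pax7pos the alternatives ran from -3.88 to -3.04 for Sesn2, -3.24 to -2.14 for Psat1 and -2.15 to -1.39 for Ddit4. All of these used the same lone Pax7pos library and genes listed by fold, so they describe these libraries only. In Tw2pos against Tw2neg, library totals gave 1607 higher and 5257 lower genes (23.4% higher, median log2 fold change -0.49), against 2645 and 2825 (48.4%, -0.04) as fitted; quantile normalisation gave 57.4% and a median of 0.10. Signs turned with library totals for Atf4 -0.16, Ddit3 -0.32, Asns -0.16, Atf3 -0.084, Eprs -0.44, Mat2a -0.38, Slc38a2 -0.050, Gclc -0.32, Trib1 -0.35 and Sgk1 -0.40, and with quantile normalisation for Atf4 -0.25, Atf3 -0.40, Sqstm1 -0.21, Eprs -0.14, Shmt2 0.062, Mat2a -0.37, Slc38a2 -0.29, Hspa5 -0.23, Trib1 -0.25 and Sgk1 -0.28; none of these had passed. Eprs turned with DESeq2 (-0.0005). Leaving out 1 library turned the sign of genes that had not passed, with ranges of -0.64 to 0.14 for Sesn2, -0.21 to 0.48 for Ddit3, -0.57 to 0.020 for Phgdh, -0.18 to 0.12 for Ppp1r15b, -0.14 to 0.15 for Eprs, -0.35 to 0.086 for Txnip, -0.062 to 0.32 for Gclc, -0.19 to 0.13 for Shmt2, -0.19 to 0.33 for Mat2a, -0.17 to 0.36 for Trib1 and -0.22 to 0.31 for Sgk1. In Tw2pos against Pax7pos signs turned for Cebpd (-0.051 quantile, -0.17 edgeR, -0.39 DESeq2), Got1 (-0.24, -0.18, -0.40, and -0.12 to 0.23 with 1 library left out) and Sesn1 (-0.12, -0.081, -0.30). The cause was not tested.

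Leaving out 1 library gave 2578 to 7370 called genes in Tw2pos against Tw2neg (1 to 4 of the 10 genes), 1635 to 3738 in Tw2pos against Pax7pos (3 to 7), 43 to 1038 in Tw2neg against Pax7neg (0 to 2) and 935 to 3106 for the difference between the lines (1 to 4). In the last 3 of these comparisons such a fit can be left with 1 library against 1, and its counts are not read here. Quantile normalisation gave 1862, 2 and 963 in these 3, against 2853, 11 and 1736 as fitted. Tw2neg against Pax7neg had 1, 3 and 1 calls with a pseudocount of 10, no filter and no trend. Pax7pos against Pax7neg had 1174 genes past 2-fold, 2 of them members, with a pseudocount of 50, against 2484 and 4. The replicate numbers are not said to mark shared animals; deviations of same-numbered libraries correlated at 0.26 over genes, with only 2 pairs. The replicate block gave 6627 calls against 5470, with 4 of the 10 genes called. The edgeR and DESeq2 tests were not run for Tw2neg against Pax7neg and for the difference between the lines. Both use Pax7neg, whose recovered reads were not accepted by a check of units. For Tw2pos against Pax7pos these 2 tests were scaled on the genes of the CPM table, which were selected by fold. Library totals were not run for the 6-library fits, because the CPM table holds part of each Pax7 library.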
